A study of Mus musculus with 6 samples.

Results

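The genes described here are 9 genes of C-type lectin receptors (Clec4a2, Clec4d, Clec4e, Clec4n, Clec5a, Clec7a, Clec10a, Clec12a and Clec2d) and Card9, the signalling adaptor that several of these receptors share. They were chosen by symbol, and all 10 of them were found among the 23154 genes measured. RNA sequencing was carried out on 6 cultures of RAW264.7, a mouse macrophage-like cell line. Of the libraries, 3 came from a stable line with a pINDUCER20b construct that expresses HA-tagged NUR77, the nuclear receptor encoded by Nr4a1, on addition of doxycycline, and 3 came from a stable line with the matching GFP construct, called the control here. Both lines had been seeded for 24 hours when doxycycline (1 µg/mL) was added, and 18 hours of doxycycline followed in a separate dish for each replicate. Each group is thus 1 stable line, so a difference between the lines cannot be told apart from an effect of NUR77, and p-values reflect only how dishes of a line varied. Cells without doxycycline were not analysed here, and the labels name no ligand of a C-type lectin receptor.

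C-type lectin receptors are surface proteins of myeloid cells that bind sugars, glycolipids or protein ligands of microbes and of damaged cells. Activating members signal through tyrosine motifs, either their own, as in Dectin-1 (Clec7a), or those of the adaptors FcR gamma (Fcer1g) and DAP12 (Tyrobp). The kinase SYK then acts through CARD9, BCL10 and MALT1 on NF-kB. Inhibitory members such as DCIR (Clec4a2) and MICL (Clec12a) carry an inhibitory tyrosine motif that recruits the phosphatases SHP-1 (Ptpn6) and SHP-2 (Ptpn11). In the mouse, most of the genes lie on chromosome 6, in a group around Clec4e and in the natural killer gene complex around Clec7a.

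The genes lay on chromosome 6 in 8 of 10 cases. RefSeq promoter windows on GRCm38.p6, from 250 bases before to 50 bases after an annotated start, were found for 8 of the 10 genes, with 2 overlapping windows for Clec7a. The windows of the receptor pair Clec4d and Clec4e are shown because these genes lie side by side and fell together. Those of Clec7a and Clec12a are shown because these genes lie in the same complex and moved in opposite directions. Capitals mark the PU.1 core GAGGAA and the AP-1 element TGANTCA, searched on both strands.
Clec4d, chr6:123261857-123262156, plus strand: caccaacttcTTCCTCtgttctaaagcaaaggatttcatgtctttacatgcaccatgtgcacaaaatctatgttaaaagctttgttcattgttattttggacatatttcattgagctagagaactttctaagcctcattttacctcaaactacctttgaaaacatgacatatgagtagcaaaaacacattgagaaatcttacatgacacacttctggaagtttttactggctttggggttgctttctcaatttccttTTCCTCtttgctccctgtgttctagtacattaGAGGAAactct
Clec4e, chr6:123289822-123290121, minus strand: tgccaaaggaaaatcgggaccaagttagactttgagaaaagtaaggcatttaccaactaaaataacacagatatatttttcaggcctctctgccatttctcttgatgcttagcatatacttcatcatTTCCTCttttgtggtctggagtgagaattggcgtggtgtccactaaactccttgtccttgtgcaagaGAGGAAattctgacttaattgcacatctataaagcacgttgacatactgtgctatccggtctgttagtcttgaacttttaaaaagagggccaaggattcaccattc
Clec7a, chr6:129472730-129473029, minus strand: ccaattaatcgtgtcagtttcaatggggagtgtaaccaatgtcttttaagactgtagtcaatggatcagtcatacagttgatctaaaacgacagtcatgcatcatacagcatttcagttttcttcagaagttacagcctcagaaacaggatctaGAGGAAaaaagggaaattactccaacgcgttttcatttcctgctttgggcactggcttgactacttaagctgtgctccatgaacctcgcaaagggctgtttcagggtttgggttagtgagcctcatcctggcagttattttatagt
Clec12a, chr6:129349994-129350293, plus strand: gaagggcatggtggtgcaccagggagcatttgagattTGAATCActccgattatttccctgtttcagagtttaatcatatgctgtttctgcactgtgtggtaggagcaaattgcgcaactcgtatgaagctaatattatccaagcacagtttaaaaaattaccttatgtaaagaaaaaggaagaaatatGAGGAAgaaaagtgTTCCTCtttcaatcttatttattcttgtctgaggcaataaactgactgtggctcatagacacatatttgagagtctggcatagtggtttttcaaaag
The cores began 123 and 56 bases before the Clec4e start and 96 bases before the Clec7a start shown. The PU.1 core was present in the windows of 5 of the 8 genes (Clec4d, Clec4e, Clec5a, Clec7a and Clec12a), compared with 28.3% of the 32851 windows of this length. The AP-1 element was present for 2 genes, Clec12a and Clec4a2, compared with 7.81% of windows. The NR4A monomer element AAAGGTCA, which occurs in 1.51% of windows, was found in none of the 9 windows of the 8 genes. The motifs do not overlap in these windows, and a match is a description of letters only. The Clec12a window belongs to a start inside the longer GENCODE gene.

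Levels are given as normalized reads, that is, reads per 10000000 reads counted on genes. Depth was 11199468 to 15929487 reads per library, so 1 read was worth 0.628 to 0.893 normalized reads. Nr4a1 stood at 148 to 170 normalized reads in control dishes and at 288 to 314 in NUR77 dishes, so the targeted gene was higher in the line labelled for it. The filter asked for a mean of at least 10 normalized reads across all libraries. Genes above it were tested with limma on log2(normalized reads + 1), a scale that understates the change of low genes. A gene was called at a Benjamini-Hochberg adjusted p under 0.05 over all 11201 tested genes. Of these, 66.7% were called, 38.4% as higher and 28.3% as lower in NUR77 cells.

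Of the 10 genes, 8 passed the filter on low values. Among these 8, Clec10a, Clec12a and Clec2d were called higher in NUR77 cells, Clec4d, Clec4e and Clec7a were called lower, and Clec5a and Card9 were not called. The 6 calls are 75% of the 8, close to the 66.7% of all tested genes. These 6 were also the genes without overlap between the lines, again 75%, compared with 70.6% of all tested genes. Calls of 2-fold or more on the tested scale were found in 5 of the 8 (62.5%), compared with 13.9% of all tested genes. They were 3 rises, where the share over all tested genes was 7.68%, and 2 falls, where it was 6.19%. The median log2 fold change was -0.06 over the 8 genes and 0.06 over all tested genes. Clec2d passed the filter only through its level in NUR77 cells, and without it 7 genes had a mean of 10 or more in both lines. The genes were selected with earlier results of these data known, so their counts are descriptions.

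**Figure D1:**
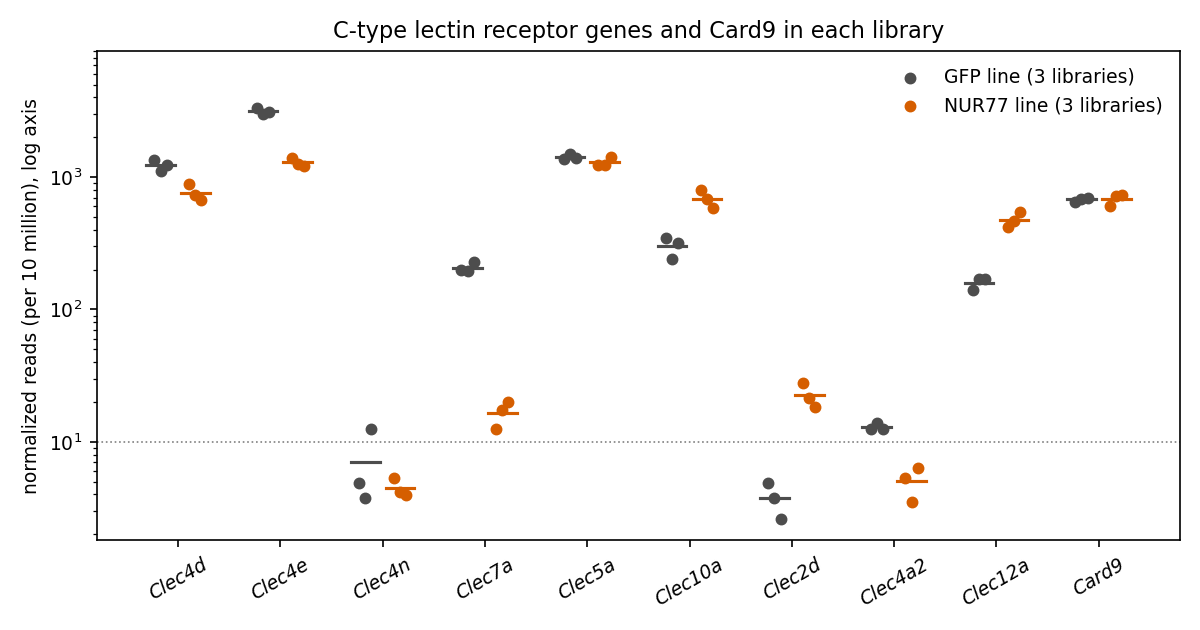
Normalized reads of each gene in each library on a log axis, with 1 point per library and a bar at the mean of the 3 libraries of a line (grey, GFP; orange, NUR77). The dotted line marks 10 normalized reads; Clec7a, Clec4e and Clec4d sit lower in NUR77 dishes, and Clec10a, Clec12a and Clec2d sit higher, with no overlap in these 6 genes.

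The receptor pair Mincle and MCL was lower in NUR77 cells. Clec4e encodes Mincle, a receptor for mycobacterial cord factor and for a nuclear protein released by dead cells, which signals through FcR gamma. Clec4e (ENSMUSG00000030142, mm10 chromosome 6, 123281789 to 123289870, minus strand) was measured at 3337, 2994 and 3124 normalized reads in control dishes and at 1382, 1261 and 1223 in NUR77 dishes. All 3 NUR77 values lay well under the lowest control value. Means of 3152 ± 173 and 1289 ± 83.2 (SD over 3 dishes, as for all values with ±) gave a log2 fold change of -1.29 (SE 0.06, limma adjusted p = 4.4e-12), which is 2.45-fold lower in the means. In bulk libraries such as these, fewer cells with a transcript and less of it per cell cannot be told apart.

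Clec4d encodes MCL, a partner of Mincle that forms a complex with it and helps to bring it to the cell surface. The gene (ENSMUSG00000030144, chromosome 6, 123262111 to 123275265, plus strand) ends 6.52 kb from Clec4e. It stood at 1342, 1111 and 1227 normalized reads in control dishes and at 890, 728 and 670 in NUR77 dishes, again without overlap. The means of 1227 ± 115 and 763 ± 114 gave a log2 fold change of -0.69 (SE 0.10, limma adjusted p = 1.2e-04). Replicate 1 was the highest of its line for both genes in both lines. The ratio of Clec4e to Clec4d reads was 2.49, 2.69 and 2.54 in control dishes and 1.55, 1.73 and 1.83 in NUR77 dishes. Thus Clec4e was lower relative to Clec4d in each NUR77 dish (exact permutation test over 3 and 3 libraries, two-sided p = 0.1, the smallest this design can give, and 0.125 adjusted over the 5 ratios compared).

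Clec4n, which encodes Dectin-2, a receptor for fungal mannans, was nearly silent. It stood at 4.88, 3.77 and 12.4 normalized reads in control dishes and at 5.36, 4.18 and 3.98 in NUR77 dishes, from 32 and 17 reads in all. The lines overlapped, and the gene was under the filter and was not tested. With no filter its log2 fold change was -0.40 (limma adjusted p = 0.454), and a difference was not detectable at this depth. Clec4n (ENSMUSG00000023349, mm10 chromosome 6, 123229843 to 123247021, plus strand) lies only 15.1 kb from Clec4d.

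The largest fall among the tested genes of the set was that of Clec7a. It encodes Dectin-1, the receptor for fungal beta-glucans. Clec7a (ENSMUSG00000079293, chromosome 6, 129461591 to 129472779, minus strand, annotated by GENCODE as a polymorphic pseudogene) was measured at 198, 195 and 227 normalized reads in control dishes and at 12.5, 17.4 and 19.9 in NUR77 dishes. The lowest control dish was far above the highest NUR77 dish. The means of 207 ± 17.5 and 16.6 ± 3.76 differ 12.4-fold, with a log2 fold change of -3.58 (SE 0.16, limma adjusted p = 5.5e-12). By size of the fall it ranked 84 among the 11201 tested genes, compared with rank 477 for Clec4e and 1099 for Clec4d. In counts, 942 reads were found over the 3 control dishes and 64 over the 3 NUR77 dishes.

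Clec5a encodes MDL-1, a receptor that pairs with DAP12. Clec5a (ENSMUSG00000029915, chromosome 6, 40574894 to 40585821, minus strand) was abundant in both lines, at 1376, 1502 and 1386 normalized reads in control dishes and 1244, 1226 and 1417 in NUR77 dishes. The lines overlapped through NUR77 replicate 3. The log2 fold change was -0.14 with a 95% interval of -0.27 to -0.00455 (limma adjusted p = 0.063), so the gene was not called. It was called lower under TMM scaling (-0.21, limma adjusted p = 0.0064), under scaling by upper quartile or by median of ratios (0.0092 and 0.011) and without NUR77 replicate 3 (-0.20, limma adjusted p = 0.0059). Its adjusted p over all alternatives reached 0.237. Relative to Clec5a, Clec4e reads stood at 1.99 to 2.42 in control dishes and at 0.863 to 1.11 in NUR77 dishes, and Clec4d reads at 0.740 to 0.975 and 0.473 to 0.716. Neither ratio overlapped between the lines (exact permutation test, two-sided p = 0.1, adjusted 0.125 for each).

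The called rises were found in a galactose receptor, an inhibitory receptor and a ligand gene. Clec10a encodes MGL1, which binds terminal galactose and N-acetylgalactosamine. Clec10a (ENSMUSG00000000318, chromosome 11, 70156197 to 70170834, plus strand) stood at 347, 240 and 317 normalized reads in control dishes and at 797, 677 and 580 in NUR77 dishes. The highest control dish was under the lowest NUR77 dish. The means of 301 ± 55.3 and 685 ± 109 gave a log2 fold change of 1.19 (SE 0.16, limma adjusted p = 2.4e-04).

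Clec12a encodes MICL, an inhibitory receptor that recognizes uric acid crystals. Clec12a (ENSMUSG00000053063, chromosome 6, 129342691 to 129365303, plus strand) was measured at 139, 169 and 169 normalized reads in control dishes and at 421, 464 and 549 in NUR77 dishes. No values overlapped, and the means of 159 ± 17.2 and 478 ± 65.3 gave a log2 fold change of 1.58 (SE 0.10, limma adjusted p = 8.2e-10), a 3.00-fold rise in the means. Clec12a lies 96.3 kb from Clec7a. The ratio of Clec12a to Clec7a reads was 0.704, 0.865 and 0.746 in control dishes and 33.6, 26.6 and 27.6 in NUR77 dishes. Both genes moved without overlap and in opposite directions, so their ratio had to separate the lines. Its p was thus fixed in advance (exact permutation test, two-sided p = 0.1, adjusted 0.125). The ratio of Clec12a to Clec10a overlapped between the lines, at 0.402 to 0.704 and 0.527 to 0.947 (exact p = 0.5).

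Clec2d encodes Clr-b, the ligand of an inhibitory receptor of natural killer cells (Klrb1b), and is widely expressed in blood cells. Clec2d (ENSMUSG00000030157, chromosome 6, 129180615 to 129186534, plus strand) was low in both lines, at 4.88, 3.77 and 2.61 normalized reads in control dishes and 27.7, 21.6 and 18.3 in NUR77 dishes. The values rest on 17 and 85 reads per line. The log2 fold change was 2.32 (SE 0.31, limma adjusted p = 5.1e-06), and it ranged from 1.65 with a pseudocount of 5 to 2.50 with limma-voom. No read of Klrb1b was found in any library.

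Clec4a2 (ENSMUSG00000030148, chromosome 6, 123106428 to 123143999, plus strand) encodes DCIR, the other inhibitory receptor of the set. It stood at 12.5, 13.8 and 12.4 normalized reads in control dishes and at 5.36, 3.48 and 6.36 in NUR77 dishes, from 59 and 19 reads. The values did not overlap, with a difference of -1.23 in mean log2 level, but its mean of 8.996 over all libraries fell just under the filter and it was not tested. With no filter it was called lower (limma adjusted p = 0.0014), as it was without NUR77 replicate 2, when its mean passed the filter (0.0124). Clec4a2 belongs to a set of similar neighbouring genes, so its few reads are uncertain. The inhibitory receptor genes Clec12a and Clec4a2 thus differed in direction, at very different levels.

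Card9, which links SYK to BCL10 and MALT1, was measured at 653, 688 and 695 normalized reads in control dishes and at 609, 725 and 732 in NUR77 dishes. The NUR77 values spanned those of the control line. Card9 (ENSMUSG00000026928, chromosome 2, 26352176 to 26360918, minus strand) had a log2 fold change of 0.02, with a 95% interval of -0.13 to 0.16 (limma adjusted p = 0.85). The sign turned to -0.06, -0.05 and -0.04 when libraries were scaled by TMM, upper quartile or median of ratios, and to between -0.03 and -0.01 when GFP replicate 1 or either of NUR77 replicates 2 and 3 was left out. Card9 was called under none of the alternatives. Gm13562 overlaps Card9 on the opposite strand, and the sources used here do not say whether reads were counted by strand.

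**Figure D2:**
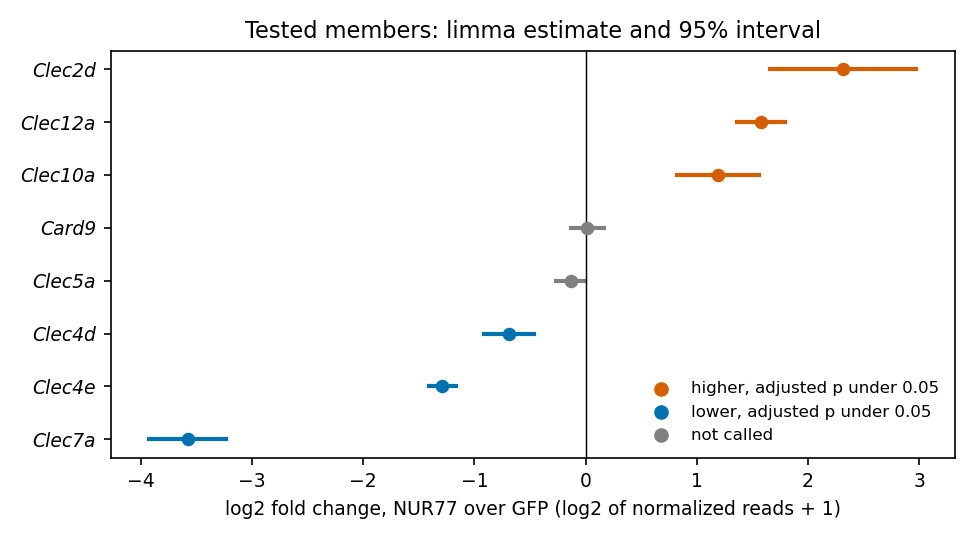
Log2 fold change of the 8 tested genes, NUR77 over GFP, with points for the limma estimate and lines for its 95% interval. Clec7a lies at -3.58 and Clec2d at 2.32, and the interval of Card9 includes 0.

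To compare levels between genes, normalized reads were divided by the kilobases of merged annotated exons. Merged exons join all annotated transcripts of a gene, so the length of the expressed transcript may differ. The order, the sum and the shares below depend on this divisor. Before this scaling, mean normalized reads of Clec4e and Clec4d were 3152 and 1227 in the control and 1289 and 763 in NUR77 cells. On this length-scaled level, the order in the control line was Clec4d (767 ± 72.2), Clec4e (635 ± 34.9), Clec5a (370 ± 18.1), Card9 (296 ± 9.90), Clec10a (104 ± 19.1), Clec7a (78.3 ± 6.64), Clec12a (28.8 ± 3.10), Clec4n (4.94 ± 3.315), Clec4a2 (4.42 ± 0.263) and Clec2d (3.09 ± 0.933). Neighbours in this order overlapped in their 3 values only for Clec10a and Clec7a, and for Clec4n and Clec4a2. In NUR77 dishes Clec4d was again first (477 ± 71.4), followed by Clec5a (337 ± 27.5), Card9 (300.4 ± 30.15), Clec4e (259.5 ± 16.8), Clec10a (236 ± 37.6), Clec12a (86.4 ± 11.8), Clec2d (18.6 ± 3.92), Clec7a (6.29 ± 1.43), Clec4n (3.17 ± 0.525) and Clec4a2 (1.73 ± 0.4998). Here Card9 overlapped with Clec4e, and Clec4e with Clec10a. The sum over the 9 receptor genes was 1996 ± 108 in control cells and 1426 ± 101 in NUR77 cells, without overlap (exact permutation test, two-sided p = 0.1). Clec4d and Clec4e held 38.4% and 31.8% of that sum in control cells, and 33.3% and 18.2% in NUR77 cells. Clec10a held 5.18% and 16.5%, Clec12a 1.45% and 6.11%, and Clec7a 3.93% and 0.447%.

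**Figure D3:**
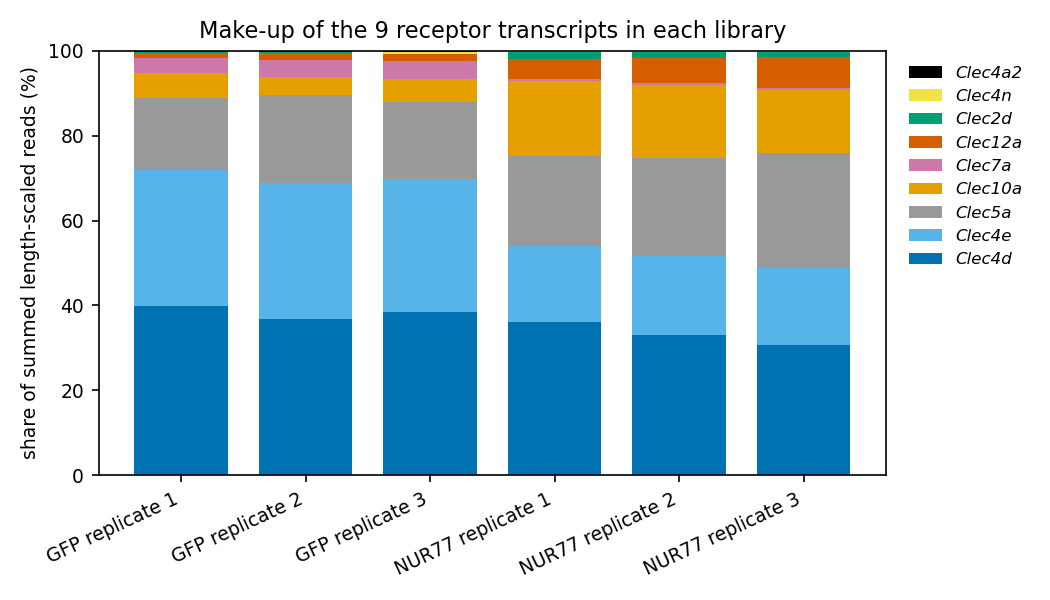
Share of each receptor gene in the summed length-scaled reads of the 9 receptor genes, in percent, with 1 bar per library. Clec4e holds a mean of 31.8% in control dishes and 18.2% in NUR77 dishes, while Clec10a goes from 5.18% to 16.5%.

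The 2 genomic groups on chromosome 6 were not uniform in direction. Within 500 kb of the starts of Clec4a2, Clec4d, Clec4e or Clec4n, 15 other measured genes were found, of which 6 were tested. Of these 6, 5 were called higher and none lower, compared with 38.4% and 28.3% of all tested genes. Among the 5, Clec4a1 passed the filter only through NUR77 cells. Clec4a1, a relative of DCIR, had 3 reads in control cells and 89 in NUR77 cells, a ratio of 35.5 (95% exact binomial interval 11.8 to 175, counting error only), and its reads are uncertain for the same reason as those of Clec4a2. The glucose transporter gene Slc2a3 and the complement receptor gene C3ar1 had log2 fold changes of 0.83 each (limma adjusted p = 3.6e-10 and 9.9e-09). Around Clec7a, Clec12a and Clec2d, 29 other genes were measured and 2 tested. Of these, the scavenger receptor gene Olr1, itself a lectin-like receptor, rose from 3.02 ± 1.73 normalized reads in the control to 30.1 ± 10.2 (log2 fold change 2.97, SE 0.36, limma adjusted p = 1.3e-06). Clec7a thus fell between Clec12a and Olr1, which both rose. Around Clec5a, 3 of 15 genes were tested, and 1 was called higher and 1 lower.

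**Figure D4:**
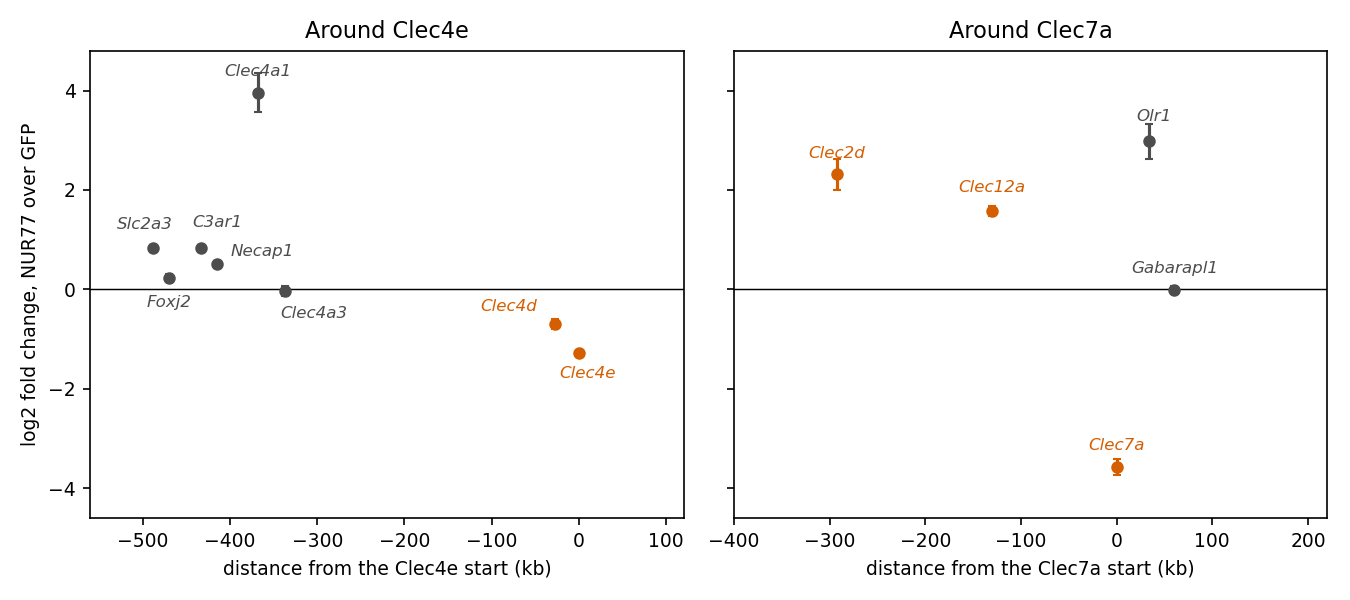
Log2 fold change of tested genes within 500 kb of the start of Clec4e (left) or Clec7a (right), against the distance between starts in kb, with bars for the SE. Orange points are the genes described here; Clec4d and Clec4e lie under 0 and Clec7a lies at -3.58 between Clec12a and Olr1.

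The remaining C-type lectin and lectin-like genes moved both ways. Of 62 measured, 22 had no read and 11 were tested, with 5 called higher, 5 lower and 1 not called (Clec4a3, log2 fold change -0.03, limma adjusted p = 0.82). Calls as higher and lower made up 38.4% and 28.3% of all tested genes. The median log2 fold change of the 11 was -0.03, compared with 0.06 over all tested genes. The called rises were led by Clec4a1, Olr1, Klra2 (2.84) and Klrg2 (1.05). Clec4a1 and Olr1 passed the filter only through NUR77 cells, and Cd93 only through the control. A difference in these 3 genes was thus favoured by the filter, but a call was not forced. With a filter at a mean of 50, 3 were called higher and 3 lower. The falls were led by Cd93, a receptor of the group with a lectin-like domain, which went from 449 ± 19.0 to 8.22 ± 3.54 normalized reads (-5.68, SE 0.23, limma adjusted p = 2.7e-10). The scavenger receptor Colec12 (-1.08), Layn (-0.92) and Clec11a (-0.58) followed. The call of Clec11a (limma adjusted p = 0.048) was lost when any 1 GFP library, NUR77 replicate 1 or NUR77 replicate 2 was left out (0.065 to 0.125), with the replicate block (0.0623), with a pseudocount of 0.5 (0.0529) and with no filter (0.0676). The mannose receptor gene Mrc1, named here for its role after its values were seen, had 41 reads in control cells and 2 in NUR77 cells. The GFP to NUR77 ratio was 17.1 (95% exact binomial interval 4.45 to 146). Other untested genes of the list, also named after their values were seen, moved both ways without overlap. Mrc2 had 5 and 28 reads in control and NUR77 cells and Ly75 1 and 11, while Thbd had 53 and 4 and Cd209a 18 and 0.

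The adaptors that carry the signal of Mincle, MCL, Dectin-2 and MDL-1 were lower in NUR77 cells. Fcer1g went from 3183 ± 86.1 normalized reads in the control to 1483 ± 72.05 (log2 fold change -1.10, SE 0.05, limma adjusted p = 7.5e-12), and Tyrobp from 4674 ± 239 to 1826 ± 64.1 (-1.36, SE 0.05, limma adjusted p = 5.5e-13). In the whole list of tyrosine-motif adaptors and proximal kinases, 22 of 23 genes were tested, with 7 called higher, 8 lower and a median of 0.00. These counts stand beside shares of 38.4% higher and 28.3% lower over all tested genes. The transmembrane adaptor Lat2 (-1.76) and the linker Blnk (-1.25) fell as well. The Src-family kinase Lyn (1.10), the phospholipase Plcg1 (1.08) and the exchange factor Vav2 (0.49) rose. Pik3cg (-0.09, limma adjusted p = 0.15) and Plcg2 (0.04, limma adjusted p = 0.48) were not called, though Pik3cg was called lower with scaling by TMM, upper quartile or median of ratios (limma adjusted p = 0.013, 0.019 and 0.023) and without NUR77 replicate 3 (0.026). Syk, named for its role after its values were seen, rose from 1491 ± 32.8 to 1745 ± 108 normalized reads (0.22, SE 0.06, limma adjusted p = 0.0018).

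Around CARD9, the partners of its complex differed in direction. Bcl10 rose from 525 ± 22.8 normalized reads in the control to 715 ± 63.5 (log2 fold change 0.44, limma adjusted p = 2.8e-05), and the protease gene Malt1 fell from 1003 ± 33.2 to 554 ± 24.2 (-0.86, limma adjusted p = 8.6e-10). All 20 genes of the CARD9, NF-kB and NFAT list were tested, with 7 called higher, 5 lower and a median of 0.04. Shares over all tested genes were 38.4% higher and 28.3% lower. The kinase gene Map3k14 of the alternative NF-kB route (1.94), Nfatc2 (0.65) and Nfatc3 (0.56) rose. The ubiquitin ligase Traf6 (-0.59), the IKK subunit Ikbkg (-0.47) and the calcineurin subunit Ppp3ca (-0.43) fell. Ppp3r1 and Chuk were both at 0.05 (limma adjusted p = 0.45 and 0.42) and were not called.

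Under the main settings, genes listed here as restraining this signalling were called in all 12 cases tested, compared with 66.7% of all tested genes. Ptpn11, whose product inhibitory receptors recruit, is counted among them. Of the 12, 8 were higher and 4 lower, with a median of 0.17, where the shares over all tested genes were 38.4% and 28.3%. With scaling by TMM, upper quartile or median of ratios, 5 were called higher, with the phosphatase genes Inpp5d and Inppl1 and the ubiquitin ligase gene Cbl not called. Inppl1 overlapped between the lines, and its call also needed the variance trend (limma adjusted p = 0.0796 without it). That of Cbl needed both the trend (0.111 without it) and the filter (0.0617 without it). Some fits lacking a single library lost these calls too (limma adjusted p = 0.0624 to 0.0843 for Inppl1 and 0.0664 to 0.224 for Cbl). Ptpn6, the phosphatase recruited by Clec12a, rose from 1729 ± 80.2 normalized reads in the control to 5623 ± 316 (log2 fold change 1.70, SE 0.05, limma adjusted p = 5.0e-14). The ubiquitin ligase Cblb (1.27), Ptpn11 (0.66) and the kinase Csk (0.45), which acts on Src-family kinases, rose. The docking proteins Dok3 (-0.42), Dok2 (-0.36) and Dok1 (-0.31) and the adaptor Pag1 (-0.25) fell, and the call of Pag1 was lost without the variance trend (limma adjusted p = 0.0503).

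Genes known to be induced through Dectin-1 and Mincle were called higher in 11 of 14 tested cases and lower in 2, with a median of 1.66. Over all tested genes, 38.4% were called higher and 28.3% lower. The list held 18 genes. Of those not tested, Il12b, Il2 and Cxcl1 had at most 2 reads in either line, and Csf2 had 0 and 46 reads in control and NUR77 cells. Of the rises, 4 (Il10, Il6, Il1b and Il23a) passed the filter only through their level in NUR77 cells. Egr3 passed only through the control. The filter thus favoured a difference in these 5 genes, but it did not force a call. The cytokine gene Il10 was without a read in control dishes and at 47.0 ± 7.81 normalized reads in NUR77 cells, a level at least 71.3-fold higher with the control set at a floor of 3 reads for the whole group. The chemokine gene Cxcl2 rose from 45.9 ± 4.37 to 1816 ± 207 normalized reads (5.27, SE 0.09, limma adjusted p = 5.0e-17), and Il1b and Ptgs2 completed the 4 largest rises. The NFAT target Egr3 (-0.84, limma adjusted p = 0.025) and the interleukin-1 antagonist Il1rn (-0.33) fell. The call of Egr3 was lost without GFP replicate 1, GFP replicate 2 or NUR77 replicate 2 (limma adjusted p = 0.06, 0.081 and 0.118). Egr2 was at -0.33 (limma adjusted p = 0.066), but was called lower with scaling by TMM, upper quartile or median of ratios (0.027, 0.031 and 0.033), without the variance trend and without NUR77 replicate 2 (0.047 each). Many other signals act on these genes, and whether the receptors had a part in their levels was not tested.

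Of 8 transcription factor genes of myeloid receptor expression, 3 were called higher and 1 lower, compared with 38.4% and 28.3% of all tested genes. Cebpd (2.00), Relb (0.94) and Irf8 (0.61) rose and Cebpa fell (-0.34). Spi1, which encodes PU.1, was at 0.09 (limma adjusted p = 0.21). Cebpb, known as an inducer of the Mincle gene, was at 352 ± 28.2 and 353 ± 7.44 normalized reads in the control and NUR77 lines (0.00, limma adjusted p = 0.96).

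**Figure D5:**
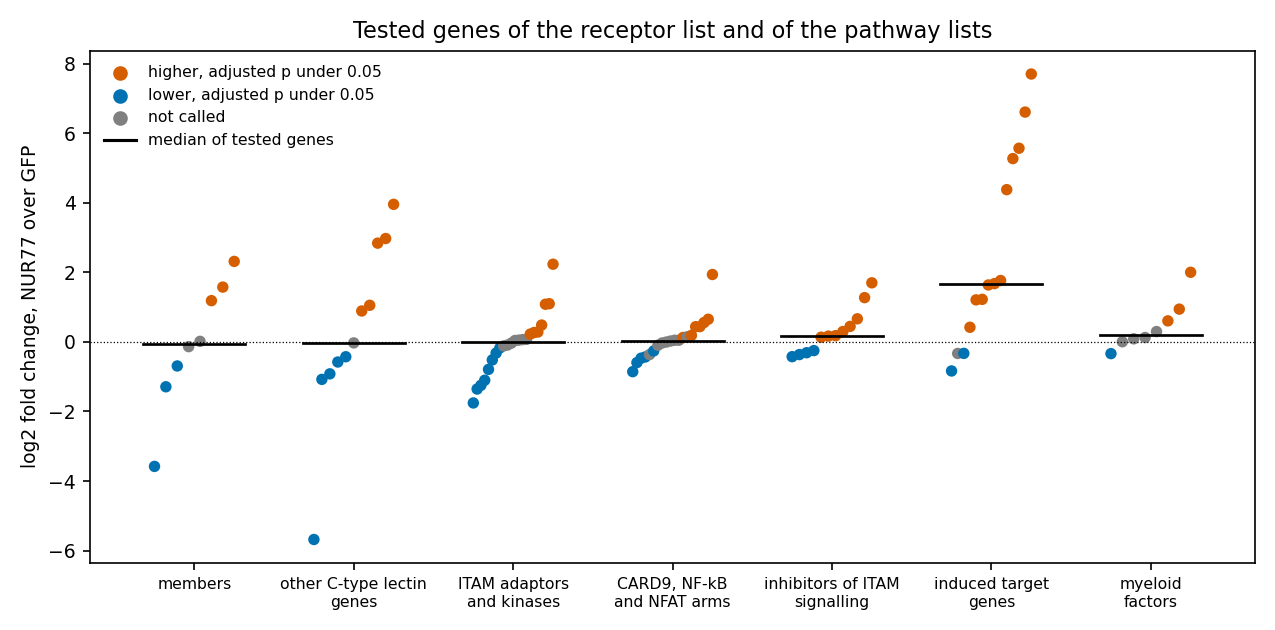
Log2 fold change of every tested gene of the receptor set and of 6 pathway lists, sorted within each list, with a bar at the median of the tested genes. The medians lie between -0.06 and 0.21 in all but the list of induced target genes, where the median is 1.66. Of the 14 tested genes of that list, 4 passed the filter only through NUR77 cells and 1 only through the control.

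By distance between mean-centred log2 levels over the 6 libraries, the tested genes nearest to Clec7a were Myo1f (distance 0.314), Cd300a (0.367) and Ahnak2 (0.43), with log2 fold changes of -3.63, -3.52 and -3.41. Those nearest to Clec2d, the member with the largest rise, were Socs3 (0.350), Adora2b (0.397) and Fosl1 (0.407), with 2.34, 2.51 and 2.35. The 6 libraries share the split into 2 lines, so these distances describe profiles that all hold the same step.

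The markers of the labelled cell type and of other cell types were read beside these changes. All 10 macrophage markers were present in both lines, from Spi1 and Adgre1 to the abundant Lyz2, Mpeg1 and Cd68. They summed to 77230 to 78730 normalized reads in control dishes and to 29350 to 30920 in NUR77 dishes. Of the 10, 6 were called lower, 2 higher and 2 not called, compared with 28.3% lower and 38.4% higher over all tested genes. Lyz2 fell from a mean of 26664 in the control to 2566 in NUR77 cells and Mpeg1 from 16580 to 1019, while Itgam rose from 4224 to 9598. The 6 dendritic cell markers summed to 23.2 to 34.8 and 41.1 to 50.9, with Flt3 at 0 in all libraries. Among them Zbtb46 rose (log2 fold change 1.49), while Xcr1 had 35 and 6 reads in control and NUR77 cells, Siglech 16 and 0, Ccr9 5 and 1, and Itgae 5 and 8, all too few to test. The 9 neutrophil markers summed to 4.88 to 10.0 and 13.5 to 42.9, with Ly6g, Camp and Ngp at 0. Of these S100a8 rose (2.35), from a level under 10 in control cells, while Cxcr2 had 9 and 1 reads, Elane 3 and 0, and Mpo, Ltf and S100a9 at most 3 reads in either line. Of 9 lymphocyte markers 7 were at 0, and the sum was at most 3.92. The 5 epithelial markers summed to at most 0.893. The 6 fibroblast markers (Pdgfra at 0) summed to 17.65 to 22.3 and 29.4 to 113, and the 9 muscle markers to 378 to 432 and 104.5 to 276, both highest among the NUR77 libraries in replicate 1. Lum had 0 and 46 reads in control and NUR77 cells, Dcn 6 and 32, and Col1a1 15 and 27. These were higher in every NUR77 dish than in any control dish, while Col1a2 and Col3a1 overlapped. Tnni2 made up most of the muscle sum in control dishes, and of the muscle genes it alone was called, as lower (log2 fold change -2.28). Without NUR77 replicate 1, the log2 fold changes were -1.34 for Clec4e, -0.81 for Clec4d, -3.40 for Clec7a, 1.07 for Clec10a, 1.66 for Clec12a and 2.16 for Clec2d, each still called. The part of the marker differences in the receptor differences was not tested.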

How the data were processed

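Poly(A) RNA of 6 RAW264.7 cultures was sequenced. Per the labels' protocols, the libraries keep strand and had 12 PCR cycles from 1000 ng of RNA. The submitters' processing notes name TopHat2 2.1, HTSeq, DESeq2 and mm10, with no role for each tool. The authors deposited log2 values per library. From the values, these are log2(normalized reads + 1) with equal library totals, and whole reads were recovered for 100% of values within 0.1 read. Symbols, positions and merged exon lengths came from GENCODE on GRCm38 (mm10), which named 22872 of 23154 genes. On that scale, log2(normalized reads + 1), the lines were compared with limma (version 3.58.1, R version 4.3.3) without covariates. Variances were moderated robustly around a mean-variance trend, and the script was tested on simulated data. Genes needed a mean of 10 or more normalized reads. Equal totals let a few abundant genes shift all others. Members and lists were chosen with earlier results of these data known. All members were named. From each list came up to 4 called genes per direction by size and up to 2 uncalled genes by level, then the nearest profiles and up to 4 neighbours. Other named genes are stated as such. Alternatives were other pseudocounts, filters, scalings and variance models, a replicate block, and each library left out. Limits of 3 reads and binomial intervals cover counting error only. No replicate pair was a duplicate (chi-square per degree of freedom 2.48 or more). Protein sequences were not used here, and 1 gene that the rule would name is not reported here.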

Additional observations from a re-analysis of the deposited data

How the results depend on the processing

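All 6 calls among the receptor genes kept their direction and their call under every alternative in which the gene was tested; Clec2d was under the filter at a mean of 50. Over the alternatives, the 8 tested members had 127 values. Of these, 123 kept their side of the threshold and 4 were calls gained by Clec5a, and Card9, never called, turned sign in 6. The 2 untested members had 3 values, of which 2 were calls of Clec4a2 as lower, without a filter and without NUR77 replicate 2. Of 1379 values of the pathway genes, 44 lost and 18 gained a call, and none reversed while called. The counts that moved by over 1.5 times were those of other C-type lectin genes, with 10 higher and 8 lower without a filter and 3 higher and 3 lower with a filter at a mean of 50. Inhibitors of tyrosine-motif signalling had 5 called higher under TMM, 5 under upper-quartile and 5 under median-of-ratios scaling, and target genes had 1 called lower with a filter at a mean of 50. Leaving out 1 library gave 1 to 2 target genes called lower. The filters change which genes are tested; the cause of the other changes was not tested. With the replicate block, 3 members were called higher and 3 lower, and 4365 and 3220 of all genes. Same-numbered libraries had correlations of deviations of 0.00159, 0.114 and 0.0447 over the tested genes. These are low, but do not settle whether replicate numbers pair the libraries. The block lowered the limma adjusted p of Clec10a (to 2.2e-07), Clec4d (to 8.8e-08), Clec12a, Clec5a and Card9. It slightly raised that of Clec4e, Clec7a and Clec2d. The count test planned on recovered reads was not run, because the deposited unit is a log2 value, and limma-voom took its place, a choice made after seeing the data. One read was worth up to 0.893 normalized reads, which limits Clec4n, Clec4a2 and Clec2d.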
